A study of Mus musculus with 4 samples.

Results

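The 9 genes described here were chosen as encoding transcription factors that keep CD8+ T cells in a stem-like or memory state: Tcf7, Lef1, Bach2, Bcl6, Myb, Satb1, Foxo1, Ikzf1 and Ets1. They were taken by gene symbol from an expression table of 24537 genes, in which each of the 9 has a single row. RNA was sequenced from CD8+ T cells that had entered B16-GP33 tumours, in samples labelled day 21. The B16 line derives from a melanoma of the mouse, and GP33 names a viral epitope that CD8+ T cells recognise. One group carries the genotype label EV and was taken as the control, and the other the label ACSS2NLS, with 2 libraries each; all 4 share the tumour, the day and the cell type. The enzyme ACSS2 uses acetate to form acetyl-CoA. The sources used here give neither how the gene was delivered nor whether libraries of a group came from different mice. The p-values therefore measure the spread between these libraries, which may be technical.

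TCF1, the product of Tcf7, and its close relative LEF1 bind DNA through an HMG box and can recruit either beta-catenin, which activates, or Groucho/TLE proteins, which repress. In chronic infection and in tumours, TCF1 marks the progenitor cells among exhausted CD8+ T cells, which renew themselves and give rise to the terminally exhausted cells. MYB, BACH2, BCL6, SATB1 and FOXO1 are each known to favour the progenitor or memory state, partly by holding back effector regulators such as BLIMP-1 and ID2. Ikaros (Ikzf1) and ETS1 are lymphocyte factors present in most T cell states.

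Tcf7 was 1.81-fold higher in ACSS2NLS than in EV cells by mean FPKM (a tag count scaled to exon length and library size), and Myb was 1.44-fold higher. Satb1 stood at 0.733 of its EV level and Foxo1 at 0.860. For those 4 genes both ACSS2NLS libraries lay on the same side of both EV libraries, while the groups overlapped for Lef1, Bach2, Bcl6, Ikzf1 and Ets1. By mean, 6 of the 9 factors were higher and 3 lower in ACSS2NLS, beside 5217 higher and 4593 lower among all genes tested. None of the 9 passed the test across all genes.

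The test was limma-trend on log2(FPKM + 1), two-sided, with Benjamini-Hochberg adjustment over the 9810 genes that had a mean of at least 1 FPKM; all 9 factors passed that filter. Log2 differences are on this scale, ACSS2NLS minus EV, and come out too small for genes of low level. Over all genes 0.0204% passed an adjusted p of 0.05, namely Acss2 and its antisense neighbour Acss2os. Whether reads of Acss2 enter the Acss2os value was not tested. At an unadjusted p under 0.05 there were 3 of the 9 factors (Tcf7, Satb1 and Myb), beside 5.97% of all genes. The 9 were chosen with earlier results of these data known, so that count is no independent evidence. The groups did not overlap for 2 factors upward and 2 downward, beside 19.3% of all genes upward and 18.1% downward, or 37.4% in either direction, so that count of 4 in 9 is near the background. The median log2 difference of the 9 was 0.11, beside 0.02 for all genes tested. Because all 9 differences come from the same 4 libraries, they are not independent of each other. With 2 libraries against 2, an exact permutation test of a single gene cannot give a two-sided p below 0.333.

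The libraries held about 46000000 to 49300000 tags. Acss2 was at 3.66 and 3.92 FPKM in EV and at 80.7 and 86.3 FPKM in ACSS2NLS, which matches the labels. All 10 T cell markers examined, Cd3e and Cd8a among them, were detected in every library, with a summed level of 1690 to 2310 FPKM. Transcripts of other tumour cells were present and were higher in replicate 2 of each group. The 15 myeloid markers summed to 76.4 and 457 FPKM in EV replicates 1 and 2 and to 199 and 775 FPKM in ACSS2NLS replicates 1 and 2. The 12 melanoma markers summed to 6.71 and 41.2 FPKM in EV and to 13.8 and 144 FPKM in ACSS2NLS. No marker of either list was at 0 in all libraries. B cells, which also use several of these factors, left little RNA: the defining gene Pax5 was listed at 0 in 3 of the 4 libraries, Ebf1 reached at most 0.064 FPKM, and the 9 B cell markers summed to 1.62 to 3.37 FPKM, most of it from Cd79b. In bulk RNA, a change in the number of cells that use a gene and a change in RNA per cell cannot be told apart.

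**Figure D1:**
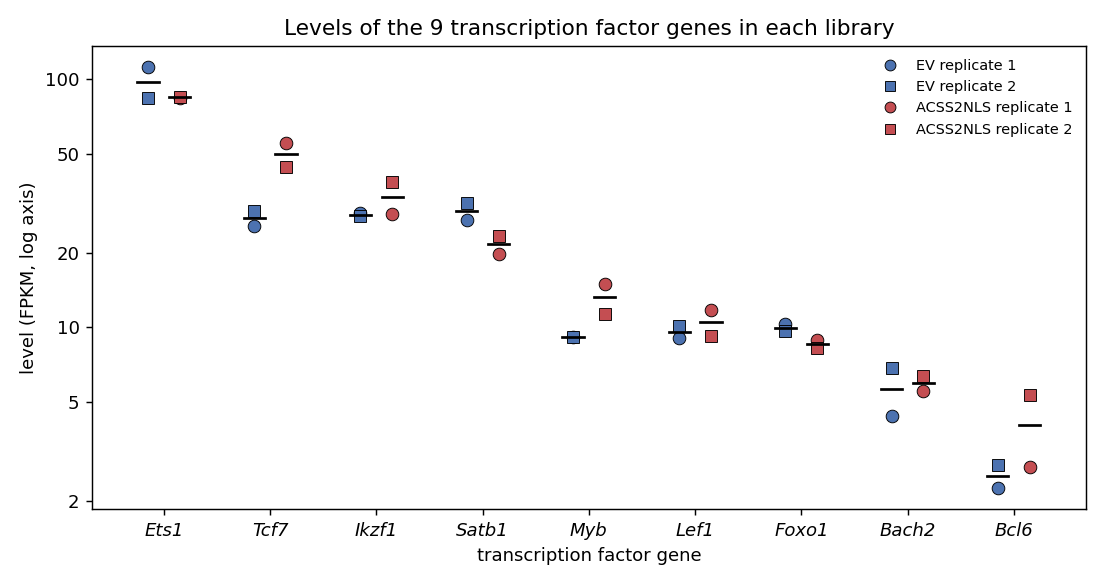
Level of each of the 9 genes in FPKM (log axis), with genes ordered by their mean over the 4 libraries; circles are replicate 1, squares replicate 2, and short bars the group means. Tcf7 and Myb are higher in both ACSS2NLS libraries, Satb1 and Foxo1 are lower in both, and Ets1 is the most abundant throughout.

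Tcf7 (NM_009331; mm10 chromosome 11, 52252283 to 52282595, minus strand) had the largest difference of the 9. Its level was 25.6 and 29.5 FPKM in EV replicates 1 and 2 and 55.5 and 44.3 FPKM in ACSS2NLS replicates 1 and 2. The lowest ACSS2NLS library was therefore well above the highest EV library, and the gap between groups exceeded the gap between replicates in either group, which was 0.20 in EV and 0.32 in ACSS2NLS on the log2(FPKM + 1) scale. The difference was 0.83 ± 0.15 (SE, n = 2 per group; 95% interval 0.44 to 1.22; limma-trend adjusted p = 0.750). By its unadjusted p Tcf7 ranked 30 of 9810 genes, and 0.95% of genes had a difference as high or higher. The fewest tags behind any of its values was 3022, so counting error was at most 1.82%. Leaving out each library in turn gave 0.67 to 0.99. Scaled to the T cell markers of each library, which moves the median of all genes from 0.02 to 0.13, the difference was 0.96. The value covers all isoforms that share exons with the counted transcript, so forms with and without the beta-catenin binding part of TCF1 are not separated.

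The sequence around the start of the counted Tcf7 transcript is shown because Tcf7 had the largest difference and the window holds the letters bound by 2 factors of the set. RefSeq (GRCm38.p6, the same assembly as mm10) gives windows starting at the counted transcript for 7 of the 9 genes, each reaching from 250 bases before to 50 after the start. Motifs for 5 families were searched on both strands: GTAAACA for FOXO factors, CCGGAAG for ETS factors, CTTTGA for TCF and LEF factors, AACGG for MYB and TGANTCA for BACH factors; they were chosen after the windows had been read. The FOXO letters occur in the windows of Tcf7 and Myb only among the 7, and in 3.66% of 32544 such windows of all genes. The ETS letters occur in Tcf7 and Bach2 (8.91% of all windows), the TCF and LEF letters in Bach2 (16.0%), the MYB letters in Bach2 and Foxo1 (17.4%) and the BACH letters in none of the 7 (7.79%). Below, Tcf7 runs from 120 bases before to 30 after the start, chr11:52282566-52282715 on the minus strand, and Myb shows 30 bases after its start, chr10:21160936-21160965 on the minus strand. Capitals mark the ETS and then the FOXO match in Tcf7, and the FOXO match in Myb.
Tcf7: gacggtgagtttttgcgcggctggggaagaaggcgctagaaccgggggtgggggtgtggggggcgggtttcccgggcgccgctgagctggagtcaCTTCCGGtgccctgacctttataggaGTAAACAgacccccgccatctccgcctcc
Myb: tgtttgatggcatcTGTTTACagagttaca
The ETS match in Tcf7 begins 25 bases before the start and the FOXO match at base 2 of the transcript, and the match in Myb begins at base 34. These are matches of letters only; binding was not measured.

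Lef1 (NM_001276403; chromosome 3, 131112791 to 131224357, plus strand), which can stand in for TCF1 in memory cells, did not separate the groups. Its level was 9.10 and 10.1 in the EV libraries against 11.7 and 9.23 FPKM with ACSS2NLS, so the groups overlapped and the lower ACSS2NLS library lay between the EV libraries. The log2 difference was 0.11 ± 0.15 (95% interval -0.28 to 0.50; adjusted p = 0.908), and it turned to -0.05 without ACSS2NLS replicate 1. Whether Lef1 and Tcf7 differ in their response was not tested, and their intervals overlap. The other relatives of TCF1 were close to absent: Tcf7l1 reached at most 0.139 FPKM, and Tcf7l2 was at 0.089 and 0.596 in the EV libraries against 0.214 and 0.890 FPKM with ACSS2NLS, with the order of the libraries that the myeloid markers also had.

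Myb (NM_010848; chromosome 10, 21124930 to 21160984, minus strand) encodes a factor required for the self-renewing part of the exhausted pool. The EV libraries were nearly equal, at 9.14 and 9.19 FPKM, and the ACSS2NLS libraries stood higher, at 15 and 11.3 FPKM. The log2 difference was 0.47 ± 0.16 (95% interval 0.06 to 0.87; adjusted p = 0.810). ACSS2NLS replicate 1 carried the larger share of it, and without that library the difference was 0.28. Myb and Tcf7 had the same order within ACSS2NLS, replicate 1 above replicate 2. The cell cycle relative Mybl2 went the other way, at 8.75 and 7.89 in the EV libraries against 6.49 and 6.24 FPKM with ACSS2NLS (log2 difference -0.34 ± 0.13, adjusted p = 0.810), and Mybl1 stayed under 0.18 FPKM.

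BACH2 and BCL6 repress effector programmes, and neither of their genes separated the groups. Bach2 (NM_001109661; chromosome 4, 32417435 to 32586108, plus strand) was at 4.39 and 6.88 in the EV libraries against 5.54 and 6.38 FPKM with ACSS2NLS. Both ACSS2NLS values lay between the EV values, and the log2 difference of 0.09 ± 0.22 (95% interval -0.45 to 0.64; adjusted p = 0.948) turned to -0.18 without EV replicate 1. Bcl6 (NM_009744; chromosome 16, 23965052 to 23988612, minus strand), the least abundant of the 9, was at 2.25 and 2.80 in the EV libraries against 2.73 and 5.35 FPKM with ACSS2NLS. A single library, ACSS2NLS replicate 2, stood apart, and it is also the library with the highest myeloid and melanoma marker levels. The log2 difference of Bcl6 was 0.47 ± 0.28 (95% interval -0.24 to 1.18; adjusted p = 0.822), and 0.09 without that library. The part of other cells in the Bcl6 value was not tested; adding the myeloid marker level to the model gave 0.30, and adding the melanoma marker level gave 0.19.

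Satb1 (NM_001163632; chromosome 17, 51736187 to 51833290, minus strand), a chromatin organiser that restrains inhibitory receptor expression in T cells, was the factor with the largest difference downward. Its level was 27.2 and 31.7 in the EV libraries against 19.8 and 23.4 FPKM with ACSS2NLS, with no overlap. The log2 difference was -0.43 ± 0.14 (95% interval -0.79 to -0.08; adjusted p = 0.810), and it ranged from -0.55 to -0.31 with each library left out. Within each group replicate 2 was the higher library. Scaled to the T cell markers, the difference was -0.30.

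Foxo1 (NM_019739; chromosome 3, 52268337 to 52350109, plus strand) encodes a factor that AKT signalling drives out of the nucleus and that activates homing genes and Tcf7 itself. It was at 10.3 and 9.63 in the EV libraries against 8.90 and 8.28 FPKM with ACSS2NLS, a small separation with close replicates (log2 difference -0.20 ± 0.12, 95% interval -0.51 to 0.11, adjusted p = 0.822). Scaled to the T cell markers, the difference was -0.07. The other FOXO genes were low, with Foxo3 at no more than 0.512 FPKM, Foxo4 at no more than 0.289 FPKM and Foxo6 at or near 0.

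The 4 homing and survival genes known to depend on FOXO1 that are given here, chosen after their values were seen, did not share a direction. S1pr1, a receptor for tissue egress, was at 1.29 and 1.66 in the EV libraries against 3.45 and 2.89 FPKM with ACSS2NLS (log2 difference 0.75 ± 0.18). Klf2, the activator of S1pr1, overlapped between groups (0.32 ± 0.34) and turned to -0.10 without ACSS2NLS replicate 1 and to -0.02 without EV replicate 2. The chemokine receptor gene Ccr7 and the IL-7 receptor gene Il7r had negative differences (-0.68 ± 0.36 and -0.57 ± 0.26), and none of the 4 passed. Without ACSS2NLS replicate 2 the Ccr7 difference was -0.23, and without EV replicate 2 it was -0.34 for Ccr7 and -0.22 for Il7r.

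Ikzf1 (NM_001301865; chromosome 11, 11690177 to 11772926, plus strand) was at 28.9 and 28 in the EV libraries against 28.7 and 38.4 FPKM with ACSS2NLS. The other libraries were alike and ACSS2NLS replicate 2 was higher, so the log2 difference of 0.22 ± 0.16 (95% interval -0.19 to 0.62; adjusted p = 0.835) shrank to 0.01 without it. Myeloid cells also express Ikaros, and their part in the Ikzf1 value was not tested. Adding the myeloid marker level to the model gave 0.16, and adding the melanoma marker level gave 0.10. Ikzf3, which encodes Aiolos, was the next in its family, at 27.2 and 19.7 in the EV libraries against 32.1 and 24.0 FPKM with ACSS2NLS, and the groups overlapped; the log2 difference ranged from 0.03 to 0.47 with a library left out. Ikzf2, Ikzf4 and Ikzf5 were at 1.5 FPKM or less in every library, and Ikzf5 was higher in both ACSS2NLS libraries (log2 difference 0.26 ± 0.16).

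Ets1 (NM_011808; chromosome 9, 32696042 to 32757820, plus strand) was the most abundant of the 9 in each library. It was at 112 and 83.8 in the EV libraries against 83.8 and 85 FPKM with ACSS2NLS. Only EV replicate 1, the library with the lowest myeloid and melanoma levels, stood apart, and without it the log2 difference of -0.19 ± 0.17 (95% interval -0.61 to 0.22; adjusted p = 0.850) was 0.01. Among the ETS relatives, Ets2 was lower in both ACSS2NLS libraries, at 4.87 and 3.95 in the EV libraries against 2.83 and 2.98 FPKM with ACSS2NLS (log2 difference -0.46 ± 0.16, adjusted p = 0.810). Fli1, Gabpa, Elf1 and Elf4 had differences of -0.12 ± 0.11, -0.02 ± 0.14, 0.10 ± 0.16 and 0.22 ± 0.19, and Erg was at or near 0. Elf4 was at 0.02 without ACSS2NLS replicate 2. Of the 20 relatives of the 9 factors, 9 had a mean of at least 1 FPKM; of these 4 had a higher and 5 a lower mean in ACSS2NLS, with a median of -0.02, and 0 passed (limma-trend; 2 at an unadjusted p under 0.05, both lower).

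**Figure D2:**
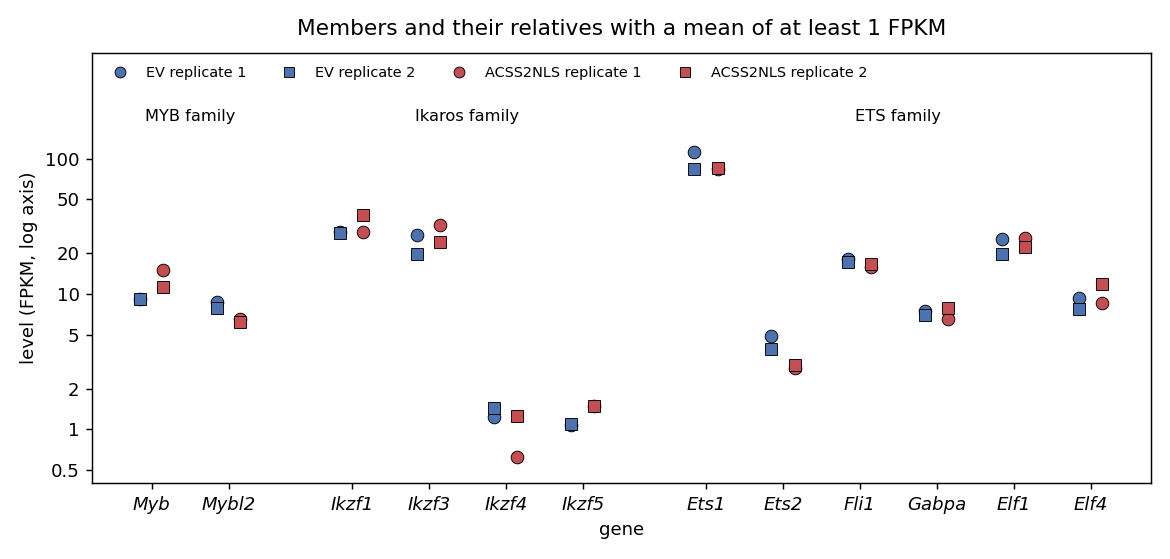
Levels in FPKM (log axis) of Myb, Ikzf1 and Ets1 beside their relatives averaging 1 FPKM or more, 4 libraries each. Myb stands above Mybl2 in all libraries and is the member of that pair with higher ACSS2NLS values; Ikzf1 and Ikzf3 are of similar level, and Ets1 exceeds its relatives.

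**Figure D3:**
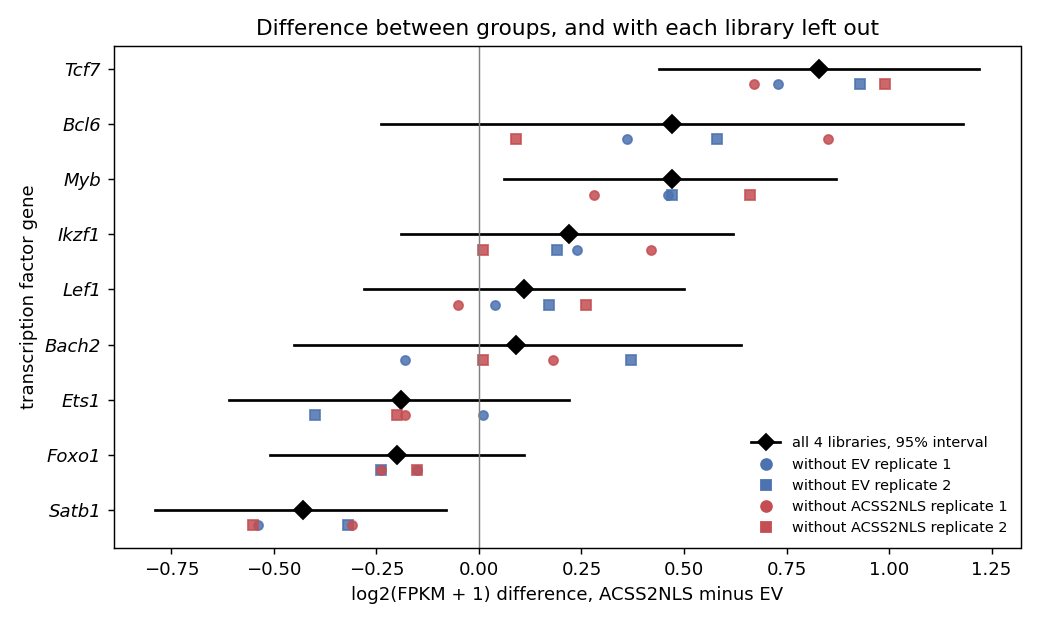
Difference in log2(FPKM + 1), ACSS2NLS minus EV, for the 9 genes: diamonds with lines are the value and 95% interval from all 4 libraries, and the coloured points below are the same difference with 1 library left out. The points of Tcf7, Myb, Satb1 and Foxo1 stay on 1 side of 0, those of Lef1, Bach2 and Ets1 cross it, and those of Bcl6 and Ikzf1 come close to it without ACSS2NLS replicate 2.

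The order of the 9 genes by mean level was Ets1, Tcf7, Ikzf1, Satb1, Myb, Lef1, Foxo1, Bach2 and Bcl6, on the FPKM scale, which corrects for exon length. Ets1 was separate from Tcf7, Satb1 from Myb, and Foxo1 from Bach2 in their ranges over the 4 libraries, while the other neighbours overlapped. In that order Tcf7 ranked 4 and 3 in the EV libraries and 2 in both ACSS2NLS libraries. Satb1 ranked 3 and 2 in EV and 4 in both ACSS2NLS libraries. So Tcf7 and Satb1 changed places: Satb1 was above Tcf7 in both EV libraries and below it in both ACSS2NLS libraries. In EV the levels were close, at 27.2 and 31.7 FPKM for Satb1 and 25.6 and 29.5 FPKM for Tcf7. The order between genes also depends on which transcript was counted for each.

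Across libraries the 9 genes did not move as a block. Relative to its own mean on the log2 scale, Tcf7 was at -0.51 and -0.32 in EV and at 0.58 and 0.25 in ACSS2NLS. Lef1 and Myb also had their highest value in ACSS2NLS replicate 1 (0.21 and 0.42), Bcl6 and Ikzf1 had theirs in ACSS2NLS replicate 2 (0.62 and 0.31), and Ets1 and Foxo1 in EV replicate 1 (0.30 and 0.14). Bach2 and Satb1 were highest in EV replicate 2 (0.23 and 0.32). ACSS2NLS replicate 2, where Bcl6 and Ikzf1 peaked, is the library with the most myeloid and melanoma RNA; their part in these values was not tested. When the model included the myeloid marker level, Tcf7, Myb and Satb1 had differences of 0.84, 0.53 and -0.51 and passed (limma-trend, adjusted p = 5.71e-06, 0.0434 and 0.0220); that fit has 1 residual degree of freedom beside 182 prior ones that limma estimated over all genes. With the melanoma marker level instead, also with 1 residual degree of freedom, the differences were 0.89, 0.58 and -0.54 and did not pass (adjusted p = 0.236, 0.271 and 0.242).

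**Figure D4:**
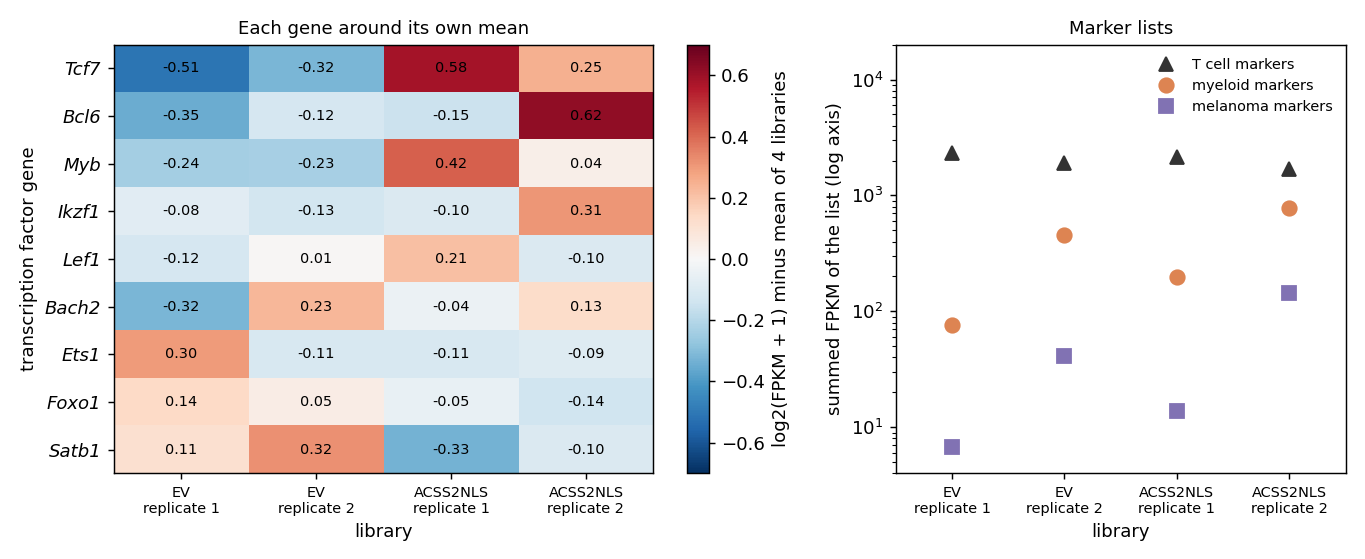
Left, log2(FPKM + 1) of each of the 9 genes minus its mean over the 4 libraries, by library; right, summed FPKM of the T cell, myeloid and melanoma marker lists in the same libraries (log axis). Tcf7 separates the groups, from -0.51 and -0.32 in EV to 0.58 and 0.25 in ACSS2NLS, while the myeloid and melanoma lists are higher in replicate 2 of each group.

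Genes of proteins that act with TCF1 and LEF1, or that set the level of beta-catenin, showed no rise beside Tcf7. Of 12 measured, 4 lay above and 8 below EV by mean (median log2 difference -0.05), and 0 passed (limma-trend; also 0 at an unadjusted p under 0.05). Aes, a short member of the Groucho/TLE family that lacks repressor activity of its own, was at 146 and 116 in the EV libraries against 109 and 95.2 FPKM with ACSS2NLS (log2 difference -0.35 ± 0.16). Axin1, a scaffold for beta-catenin destruction, had a difference of -0.25 ± 0.14, or -0.11 without ACSS2NLS replicate 1. The Aes difference was -0.19 without EV replicate 1. Ctnnb1, which encodes beta-catenin and is expressed in most cell types, was at 17.1 and 24.6 in the EV libraries against 20 and 35.2 FPKM with ACSS2NLS, higher in replicate 2 of each group as the myeloid and melanoma markers were; its difference of 0.36 ± 0.30 turned to -0.03 without ACSS2NLS replicate 2.

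Genes for partners of the other factors, such as the corepressors of BCL6, the small MAF partners of BACH2 and the acetyltransferases that bind MYB, were split, with 11 of 20 higher and 9 lower and a median of 0.01. None passed (limma-trend; 1 at an unadjusted p under 0.05). That was Maff, a small MAF gene, at 2.70 and 1.84 in the EV libraries against 0.788 and 0.950 FPKM with ACSS2NLS (log2 difference -0.80 ± 0.20, adjusted p = 0.810). Mafk, another small MAF gene, had -0.41 ± 0.20, or -0.14 without EV replicate 1 and -0.69 without EV replicate 2, and Mta1, of the NuRD complex that Ikaros joins, had -0.23 ± 0.12.

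In the AKT pathway that controls FOXO1 location, 10 of 17 genes lay below EV by mean; 8 did so without overlap of the groups, against 1 that lay above, beside 18.1% and 19.3% of all genes tested. The median was -0.09, and 0 passed (limma-trend; 1 at an unadjusted p under 0.05). Pik3r1, the regulatory subunit of PI3 kinase, was at 9.90 and 10.8 in the EV libraries against 7.43 and 6.89 FPKM with ACSS2NLS (log2 difference -0.47 ± 0.13, adjusted p = 0.810). Sgk1 and Akt1, kinases that phosphorylate FOXO1, had differences of -0.48 ± 0.21 and -0.34 ± 0.17, which were -0.20 for Sgk1 without EV replicate 1 and -0.13 for Akt1 without ACSS2NLS replicate 1. These are RNA levels, and phosphorylation was not measured. This gene list was also drawn up with earlier results of these data known, so its direction is no independent evidence.

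Among 29 measured genes of progenitor and memory T cells other than the 9 factors, 17 lay above and 12 below EV by mean, the median being 0.19 beside 0.02 for all genes. None passed over all genes (limma-trend), while 9 had an unadjusted p under 0.05, 7 of them higher, beside 5.97% of all genes tested in either direction. The list was drawn up with earlier results of these data known, so its direction is no independent evidence. Id3, an inhibitor of E proteins that marks memory precursors, had the smallest p in the list, with a difference of 1.64 ± 0.20 (adjusted p = 0.430), or 1.76 and an adjusted p of 0.0406 when scaled to the T cell markers. Next by p were the progenitor surface receptor Slamf6 (1.10 ± 0.20, adjusted p = 0.750) and Cd200 (0.88 ± 0.16, adjusted p = 0.750). Cd200 was at 3.40 and 4.04 in the EV libraries against 6.93 and 8.49 FPKM with ACSS2NLS, and encodes an inhibitory ligand. The 2 lower genes, named after their values were seen, were Socs3, a brake on cytokine signalling (-1.34 ± 0.43, adjusted p = 0.810), and Zfp36l2, an mRNA decay factor (-1.11 ± 0.35, adjusted p = 0.810).

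A list of factors drawn up as opposing the progenitor state had 14 measured genes. Tox, Nfatc1, Batf and Irf4 are among them, and not every gene need act against that state alone. Of the 14, 6 had a higher and 8 a lower mean (median -0.08), and 0 passed (limma-trend). At an unadjusted p under 0.05 there were 4, 3 of them lower, beside 5.97% of all genes tested. This list too was drawn up with earlier results of these data known, so that count is no independent evidence. Id2, which opposes Tcf7 and Id3 in effector cells, was at 364 and 318 in the EV libraries against 217 and 175 FPKM with ACSS2NLS (log2 difference -0.80 ± 0.17, adjusted p = 0.775). Hif1a, the hypoxia factor, had -0.44 ± 0.13. Bhlhe40, a factor of resident and activated T cells, was at 447 and 228 in the EV libraries against 161 and 118 FPKM with ACSS2NLS (-1.21 ± 0.35), and the difference was -0.72 without EV replicate 1. The higher gene, named after its value was seen, was Nr4a3, of the NR4A nuclear receptors induced by T cell receptor signalling (0.74 ± 0.23, adjusted p = 0.810).

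The genes most like Tcf7 over the 4 libraries were sought among genes averaging 5 FPKM or more, by the root mean squared difference of the centred log2 values. The closest were Hspe1, a mitochondrial chaperonin (0.063), Sh2d1a, which encodes the SLAM adaptor SAP (0.083), Mir6537, a microRNA gene (0.091), Crabp2, a retinoic acid binding protein (0.092), and the histone gene Hist1h2ae (0.095). Sh2d1a was at 23.0 and 24.6 in the EV libraries against 45.0 and 33.9 FPKM with ACSS2NLS. Mir6537 spans only 109 exon bases and rests on few tags, 18 and 20 in the EV libraries against 40 and 36 with ACSS2NLS. Its counting error was up to 23.6%, and which transcript those tags came from was not tested. With 4 libraries such likeness says little more than that the genes share the order of the libraries.

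Reads of overlapping genes may limit some values. The shares below are of all annotated exon bases of a gene, which for Lef1 are 8788, beside 2291 in its counted transcript. The share within the counted transcripts was not computed. In the GENCODE M21 annotation, exons of genes on the opposite strand cover 13.7% of the exon bases of Lef1, 7.78% of Foxo1, 6.26% of Myb, 5.40% of Bach2, 0.673% of Satb1 and 0.313% of Bcl6. A gene on the same strand shares 0.82% of Satb1, and no exon of another gene overlaps Tcf7, Ikzf1 or Ets1. The counting took the sense strand, but the sources used here do not say whether the library kit retains strand, so these reads cannot be told apart from those of the antisense genes.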

How the data were processed

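RNA of CD8+ T cells from B16-GP33 tumours was sequenced at day 21 in 2 EV and 2 ACSS2NLS libraries. Per the labels' protocols, RNA was isolated with RNeasy Plus Micro columns and libraries were made with SMART-Seq v4. STAR 2.5.3a, HOMER and mm10 are named in the submitters' processing notes. Per the file headers, the authors used HOMER to count sense tags over exons, with 1 transcript per gene, and deposited FPKM. The header names 8 tag directories and the table has 4 library columns, named Acss2WT and Acss2OE, which were read as EV and ACSS2NLS. No count test was used, since FPKM are normalized. FPKM times exon length fell on whole multiples of a step (100% of the values checked lay within 0.1 of one; exon lengths 500 to 2000 bases, at most 50 tags), which gave the tags behind each value. Replicates differed beyond counting noise (chi-square per degree of freedom 40.1 and 60.7).

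The test was limma-trend (limma 3.58.1, R 4.3.3) on log2(FPKM + 1) over 9810 genes averaging 1 FPKM or more. SE and intervals use its moderated variance. The code was also run on simulated libraries with independent noise. Those lack the deviations that same-numbered libraries share here, so that run does not show how the test performs on these data. The members and gene lists were chosen with earlier results of these data known. The text names the 9 members, their relatives above the same filter, up to 3 genes per other list by smallest unadjusted p, the 5 genes nearest to Tcf7 in profile, and genes said to be chosen later. Marker lists of dendritic, CD4, NK, immature T and stromal cells summed to at most 17.3, 33.2, 3.96, 0.180 and 18.5 FPKM in any library. Values of some genes are not reported here.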

Additional observations from a re-analysis of the deposited data

How the results depend on the processing

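Alternatives were other pseudocounts, filters and scalings, limma without the trend, marker levels or the replicate number as a term, and each library left out. The count of 2 genes past the threshold became 1 with no filter on low values, 3 when scaled to the T cell markers (Id3 gained, adjusted p = 0.0406), 322 with the myeloid covariate, 401 with the replicate block, and 2 to 11 with a library left out, 11 without EV replicate 1, which leaves 1 EV library assumed to vary like the ACSS2NLS libraries. The count of 0 factors among the 9 became 3 with the myeloid covariate and 1, Tcf7 (0.83, adjusted p = 0.000518), with the replicate block, and stayed 0 with a library left out (0 to 0). The replicate numbers do not show shared animals or batches: with 2 pairs the deviations of same-numbered libraries correlated at 0.583 across genes, and the block leaves 1 residual degree of freedom. Other named genes also passed with the block, among them Id3 (adjusted p = 8.61e-07), Bhlhe40 (1.24e-05), Slamf6 (1.73e-05), Id2 (0.000667), Cd200 (0.00109), Maff (0.0129) and S1pr1 (0.0141), and these 7 passed with the myeloid covariate too. Il7r and the 5 genes nearest to Tcf7 passed with both, Hif1a with the block (0.0481), and Klf2 (0.0118) and Ccr7 (0.00352) with the myeloid covariate. The median over the 9 factors moved from 0.11 to 0.23 when scaled to the T cell markers, which shifts the median of all genes from 0.02 to 0.13, and to 0.01 to 0.19 with a library left out. Bach2 turned to -0.05 and -0.06 with the myeloid and melanoma covariates. Scaled to the T cell markers, Fli1 turned to 0.01 and Gabpa to 0.11. With a library left out, ranges that crossed 0 were -0.05 to 0.26 (Lef1), -0.18 to 0.37 (Bach2), -0.40 to 0.01 (Ets1), -0.13 to 0.10 (Gabpa), -0.07 to 0.27 (Elf1), -0.03 to 0.75 (Ctnnb1) and -0.10 to 0.73 (Klf2). The causes of these shifts were not tested. Of the other values for the 9 factors, 125 kept direction and side of the threshold, and 4 passed only with the myeloid covariate or the block. Depth did not limit these genes: the fewest tags were 338, for Bcl6, a counting error of 5.44%.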
